A study of Mus musculus with 282 samples.

Results

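The BXH strains are recombinant inbred mouse lines, and the measurements described here are the expression values of the whole hypothalamus in the 16 mice whose strain label starts with BXH, of 282 mice in the series. There were 6 such strains: BXH-4/TyJ, BXH-6/TyJ, BXH-9/TyJ and BXHB2 with 3 mice each, and BXH-19/TyJ and BXHA1 with 2 mice each. The sample titles carry BXH20/KccJ for the mice labelled BXHA1 and BXH22/KccJ for those labelled BXHB2. All were males on a high fat, high sugar diet, as were the 3 C57BL/6J and 3 C3H/HeJ mice used as parental references and the 259 mice of 91 other strains. The age of the mice is not given in the sources used here. Each mouse gave 1 library, and the mouse numbers within a strain run on from each other, except for 1 BXHB2 mouse. Litter and cohort are not given, and their part in differences between strains was not tested.

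Recombinant inbred lines are made by crossing a pair of inbred strains, here C57BL/6J and C3H/HeJ, and mating brothers with sisters until each line is nearly homozygous. At an autosomal locus each finished line carries the allele of 1 parent, and neighbouring loci tend to come from the same parent. A transcript whose level is set close to its own gene is known to take one of the parental levels in each line, so the pattern of levels over a few lines can be read locus by locus. The hypothalamus, a set of small nuclei at the base of the brain, controls feeding, temperature and pituitary hormone release.

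Expression was given in FPKM, fragments scaled by transcript length and library size. A locus was called different where the moderated F test of limma on log2(FPKM + 1) gave a Benjamini-Hochberg adjusted p under 0.05 over all loci tested. Among the 6 strains 2575 of 14074 loci were called, or 18.3%. The difference between the highest and the lowest strain mean had a median of 0.35 on the log2(FPKM + 1) scale over all loci tested and of 0.63 over the loci called, and it was at least 1 at 530 loci. The share of variance that lay between strains, computed as an intraclass correlation, had a median of 31.2% over all loci and of 73.7% over the loci called. For each of the 16 mice the BXH mouse with the most similar profile, by Pearson correlation over all loci, was a mouse of the same strain. Of the 2575 loci, 2340 (90.9%) also differed among the 91 other strains, where 10249 of 14079 loci (72.8%) were called, so those shared loci made up 22.8% of the second list.

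Some libraries stood apart before any strain comparison. Both BXHA1 mice had the fewest mapped reads of the 16 and the most loci listed at 0, with 181 and 189, against 59 to 135 in the other BXH mice. Anterior pituitary markers summed to 2296 FPKM in BXH-4/TyJ replicate 2 and to at most 50.8 FPKM in each other BXH mouse. Choroid plexus markers were highest in the 3 BXH-9/TyJ mice, and thalamus markers were lowest in the 3 BXHB2 mice. In bulk tissue such as this, fewer cells of a type and less RNA per cell cannot be told apart. Reads were aligned to the C57BL/6J reference genome, and the part of that in any difference between parental alleles was not tested.

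The clearest result was a set of loci that were near 0 in some strains and abundant in the rest, with each strain near the level of one parent. Gm10260, a gene model on chromosome 13 annotated as protein coding, was 59.9, 74.2 and 71.8 FPKM in the BXH-6/TyJ mice and at most 0.76 FPKM in every other BXH mouse. It was 69.4, 72.9 and 92.3 FPKM in the C3H/HeJ mice and was listed at 0 in all 3 C57BL/6J mice. The mean of BXH-6/TyJ was 5.90 ± 0.14 (SE) above the mean of the other 5 strains on the log2(FPKM + 1) scale (limma, adjusted p = 1.3e-11). BXH-6/TyJ was thus the one strain with the C3H/HeJ level, with no overlap with the other 13 BXH mice.

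Rps3a3, a processed pseudogene of a ribosomal protein gene on the same chromosome, had another strain at the C3H/HeJ level. It was 49.9 and 58.1 FPKM in BXH-19/TyJ and 49.2, 62.8 and 66.6 FPKM in C3H/HeJ, against 0.23 to 1.06 FPKM in the remaining BXH mice and 0.12 to 0.42 FPKM in C57BL/6J. Rps3a1, on chromosome 3, and Rps3a2, on chromosome 14, were also nearer C3H/HeJ in BXH-19/TyJ alone. C3H/HeJ differed from C57BL/6J by -1.14 at Rps3a1 and by 2.10 at Rps3a2 on the log2(FPKM + 1) scale. Whether reads were split among Rps3a1, Rps3a2 and Rps3a3 was not tested. Tuba1c, an alpha tubulin gene on chromosome 15, had the same division of strains. It was 15.2 and 13.8 FPKM in BXH-19/TyJ and 14.7 to 16.4 FPKM in C3H/HeJ, against 0.22 to 1.51 FPKM in the 14 other BXH mice. Rps26-ps1, a transcribed pseudogene of another ribosomal protein gene on chromosome 8, was high in BXH-9/TyJ alone, with 41.4, 52.5 and 46.1 FPKM, next to 34.6 to 51.4 FPKM in C3H/HeJ. In the other 13 BXH mice it stayed between 0 and 1.54 FPKM.

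**Figure D1:**
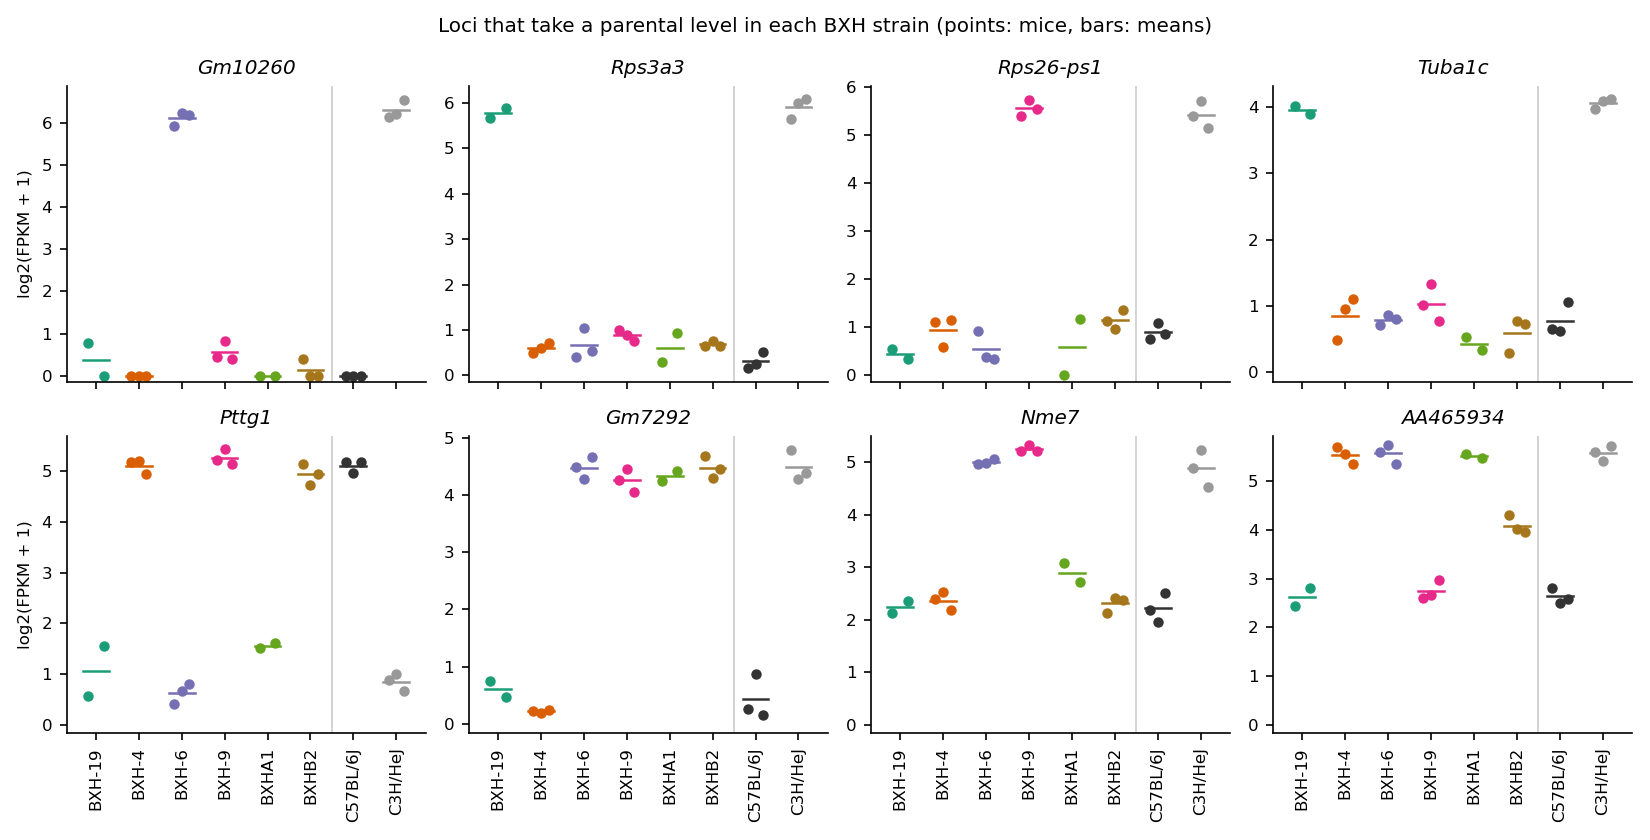
Expression of 8 loci on a log2(FPKM + 1) axis, with 1 point per mouse and a bar at the strain mean, for the 6 BXH strains (left of the line) and the parental strains. For Gm10260, Rps3a3 and Rps26-ps1 a single BXH strain lies with C3H/HeJ; for AA465934 the 3 BXHB2 mice lie between the parental levels.

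Other loci split the strains more evenly. Pttg1, which encodes securin, the inhibitor of chromatid separation in mitosis, was high in C57BL/6J (30.1 to 35.3 FPKM) and low in C3H/HeJ (at most 1 FPKM). It was 29.8 to 36.0 FPKM in BXH-4/TyJ, 34.3 to 42.2 FPKM in BXH-9/TyJ and 25.5 to 34.5 FPKM in BXHB2. In BXH-19/TyJ, BXH-6/TyJ and BXHA1 it ranged from 0.34 to 2.05 FPKM, so the groups did not overlap (F test, limma, adjusted p = 4.8e-09). Gm5506, a gene model on chromosome 18, had the mirror image of that pattern, at 22.8 to 32.3 FPKM in BXH-19/TyJ, BXH-6/TyJ and BXHA1, 19.7 to 30.0 FPKM in C3H/HeJ and at most 0.16 FPKM in the others. Its strain share of variance was 99.9%, and it was among the 3 loci with the smallest p against the other strains in each of the 6 strains. Eno1, on chromosome 4, went the other way, with C3H/HeJ differing from C57BL/6J by -1.07 on the log2(FPKM + 1) scale. Eno1 was nearer C3H/HeJ in BXH-19/TyJ, BXH-6/TyJ and BXHA1 too. Whether reads were split between Eno1 and Gm5506 was not tested.

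Gm7292, a long intergenic RNA on chromosome 6, was 15.5 to 24.7 FPKM in BXH-6/TyJ, BXH-9/TyJ, BXHA1 and BXHB2 and 0.15 to 0.68 FPKM in BXH-19/TyJ and BXH-4/TyJ. The higher level was that of C3H/HeJ, and the groups did not overlap. Nme7, a nucleoside diphosphate kinase family gene with a role in cilia on chromosome 1, was 30.0 to 39.0 FPKM in BXH-6/TyJ and BXH-9/TyJ and 22.1 to 36.5 FPKM in C3H/HeJ. The rest of the BXH mice had 3.37 to 7.41 FPKM and C57BL/6J 2.88 to 4.68 FPKM.

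Other loci did not take only the parental levels. AA465934, a non-coding transcript on chromosome 11, was 39.4 to 52.4 FPKM in BXH-4/TyJ, BXH-6/TyJ and BXHA1, next to 41.2 to 51.3 FPKM in C3H/HeJ. It was 4.43 to 6.85 FPKM in BXH-19/TyJ and BXH-9/TyJ, next to 4.69 to 6.04 FPKM in C57BL/6J. The 3 BXHB2 mice, with 18.6, 15.1 and 14.4 FPKM, lay between these groups without overlap. Gm4076, a processed pseudogene on chromosome 13, was 92.7 to 118 FPKM in BXH-6/TyJ, 79.7 to 211 FPKM in BXH-4/TyJ and 130 to 141 FPKM in C57BL/6J. It was at most 0.52 FPKM in BXH-19/TyJ, BXH-9/TyJ and BXHA1, and 0.0019, 0.0018 and 17.4 FPKM in BXHB2, so that 1 BXHB2 mouse differed from the other two. Pisd-ps1, a pseudogene on chromosome 11, was 132, 172 and 143 FPKM in BXH-6/TyJ, above every mouse of either parent.

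Several of these loci are pseudogenes or near copies of other genes, between which short reads can be split, and their levels are uncertain for that reason. Of the loci whose single name GENCODE M21 lists as a processed pseudogene, 18 of 45 (40%) were called among the strains, against 1886 of 10419 protein coding loci (18.1%) and 406 of 1938 loci with no gene name (20.9%). The alpha globin pair moved in opposite directions. Both genes were called among the strains, but Hba-a1 was no longer called without BXH-9/TyJ, or without BXHA1 and BXHB2. Hba-a2 was 2.54 to 10.1 FPKM in BXH-4/TyJ and BXH-9/TyJ and 0 to 1.26 FPKM in the other strains, while Hba-a1 was 12.3 to 33.0 FPKM in those 2 strains and 29.6 to 92.7 FPKM in the others, with a small overlap. The blood markers, which include both, summed to 105.5 to 226.8 FPKM in those 2 strains and to 141.3 to 326.3 FPKM in the others, and the part of blood content in these levels was not tested. C57BL/6J had more Hba-a2 (4.53 to 6.27 FPKM) and less Hba-a1 (14.6 to 20.1 FPKM) than C3H/HeJ, where the ranges were 0 to 0.65 FPKM and 52.0 to 72.1 FPKM.

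The parental strains, whose 6 mice are not in the fit of the BXH mice, were compared on their own. Between C3H/HeJ and C57BL/6J 627 of 14073 loci were called (4.46%), 299 higher and 328 lower in C3H/HeJ. Of these, 416 (66.3%) were also called among the BXH strains, where 18.3% of all loci were called, and they made up 16.2% of the BXH list. The remaining 2159 BXH loci were not called between the parents, a comparison of 3 mice with 3.

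At 222 loci (1.58%) the parents differed by at least 1 on the log2 scale, 136 of them higher and 86 lower in C3H/HeJ, and 183 of the 222 (82.4%) were called among the BXH strains. Markers of other tissue moved with the parents too: pituitary markers summed to 319.9, 44.9 and 92.2 FPKM in C3H/HeJ and at most 5.59 FPKM in C57BL/6J, and blood markers to 315.8 to 371 FPKM and 128 to 133.8 FPKM. The pituitary hormone genes Gh, Prl, Tshb and Cga and the globin genes Hba-a1, Hba-a2 and Hbb-bs were among the 222 loci, and the part of these tissues in the parental differences was not tested. Each strain mean was then placed on a line with C57BL/6J at 0 and C3H/HeJ at 1. Of the 1332 positions, 1069 (80.3%) lay within 0.25 of a parent, 195 (14.6%) lay between 0.25 and 0.75, and 68 (5.11%) lay more than 0.25 outside the parental range. The strain mean was nearer C3H/HeJ at 134 of the 222 loci in BXH-6/TyJ, 120 in BXH-19/TyJ, 116 in BXHB2, 109 in BXH-9/TyJ, 100 in BXH-4/TyJ and 82 in BXHA1. Counted by locus, 9 loci had no strain nearer C3H/HeJ, 54 had 3 strains and 9 had all 6.

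Among the loci with the 6 strains on one side was Wdfy1, a gene of endosomal Toll-like receptor signalling on chromosome 1. It was 4.77, 5.43 and 5.53 FPKM in C57BL/6J, 16.1 to 16.8 FPKM in C3H/HeJ and 15.8 to 19.9 FPKM in the 16 BXH mice. Every BXH mouse was thus above every C57BL/6J mouse, and the F test among the strains gave an adjusted p of 0.31. The parental difference of Nnt was below the limit of 1. Nnt, the mitochondrial nicotinamide nucleotide transhydrogenase, was 5.95 to 6.05 FPKM in C57BL/6J and 8.61 to 13.6 FPKM in the BXH mice. It also differed among the BXH strains (adjusted p = 0.0023), from 8.67 and 8.80 FPKM in BXH-19/TyJ to 11.8 to 13.6 FPKM in BXH-6/TyJ and BXH-9/TyJ, next to 8.37 to 9.73 FPKM in C3H/HeJ.

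Loci that lie near each other were given to the same parent in more strains than loci that lie far apart. Over the 54 pairs of loci within 2 Mb of each other, 71.3% of strain assignments were the same. The share was 60.7% for 45 pairs at 2 to 5 Mb, 66.7% for 61 pairs at 5 to 10 Mb, 61.1% for 126 pairs at 10 to 20 Mb and 56.6% for 336 pairs at 20 to 50 Mb. At more than 50 Mb it was 50.6%, and for the 17326 pairs on different chromosomes it was 50.3%. Pairs share loci and are not independent, and these shares are given without a test.

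**Figure D2:**
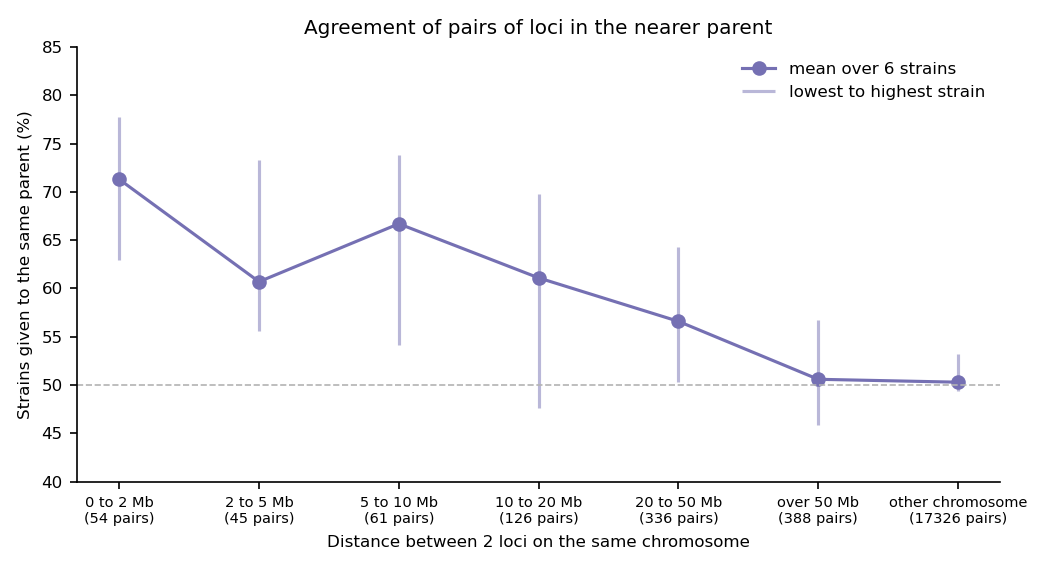
Share of the 6 BXH strains given to the same parent (y axis, percent, starting at 40) for pairs of loci that differ between the parents, by the distance between the loci (x axis); points are means over strains and vertical lines run from the lowest to the highest strain. The mean was 71.3% for pairs within 2 Mb and 50.3% for pairs on different chromosomes.

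Named loci on chromosome 17 showed such neighbours directly. Glo1, which encodes glyoxalase 1, the enzyme that removes methylglyoxal, lies at chr17:30590263-30612761 (mm10). It was 59.5 to 74.1 FPKM in BXH-6/TyJ, BXHA1 and BXHB2 and 50.2 to 53.8 FPKM in C3H/HeJ, against 33.0 to 39.9 FPKM in BXH-19/TyJ, BXH-4/TyJ and BXH-9/TyJ and 31.8 to 37.5 FPKM in C57BL/6J (F test, limma, adjusted p = 3.6e-07). Its neighbour Btbd9, a BTB domain gene, had the same 3 strains on its higher side, at 13.6 to 15.5 FPKM against 9.42 to 13.1 FPKM.

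The major histocompatibility complex, which presents peptides to T cells, begins farther along the same chromosome, and there BXH-6/TyJ alone had the C3H/HeJ level. H2-K1, a class I heavy chain gene at chr17:33996015-34000333, was 6.24, 5.42 and 4.89 FPKM in BXH-6/TyJ and 3.85, 4.63 and 8.18 FPKM in C3H/HeJ. It was 9.91 to 27.2 FPKM in the other BXH mice and 13.1 to 16.2 FPKM in C57BL/6J. H2-D1, a second classical class I gene at chr17:35262730-35267604, was 4.57, 3.85 and 4.08 FPKM in BXH-6/TyJ against 17.5 to 34.3 FPKM in the other BXH mice, a difference of -2.18 ± 0.11 (SE) on the log2 scale (adjusted p = 5.9e-08). H2-Q2, a class I gene beside H2-D1, was 0.066, 0.13 and 0.28 FPKM in BXH-6/TyJ, 0 to 0.50 FPKM in C3H/HeJ and 4.08 to 9.33 FPKM elsewhere among the BXH mice. H2-T22, a non-classical class I gene, followed at 3.97 to 5.13 FPKM against 7.74 to 9.57 FPKM. Thus BXHA1 and BXHB2 lay on the C3H/HeJ side at Glo1, where every mouse of both strains was above every C3H/HeJ mouse, and on the C57BL/6J side at these class I genes. Class I genes are close copies of each other and differ in sequence between strains, so their levels are uncertain.

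Of 13 measured genes in the MHC list, 7 were called among the strains and 5 without BXHB2, where B2m and H2-Aa were lost, with 18.3% of all loci as background, and the median range of strain means was 0.91 against 0.35 over all loci. B2m, the light chain shared by class I molecules and encoded on chromosome 2, was called with 52.6 to 59.7 FPKM in BXHB2 and 85.4 and 106 FPKM in BXH-19/TyJ. The class II genes H2-Aa and H2-Eb1 had their highest means in BXH-19/TyJ. H2-Aa was 3.15 and 6.23 FPKM there and at most 2.91 FPKM in the other BXH mice, while H2-Eb1, at 2.07 and 3.77 FPKM, overlapped with BXH-9/TyJ (1.72 to 2.66 FPKM). Among the 5 interferon-stimulated genes measured, 1 was called, Ifit3, which encodes an antiviral protein, at 3.62 to 5.93 FPKM in BXH-19/TyJ, BXH-4/TyJ and BXHB2 and 1.99 to 3.92 FPKM in the other strains, so that the groups overlapped.

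The list of loci known to vary between laboratory strains had 11 of 14 measured members called, beside 18.3% of all loci, and 8 without BXH-9/TyJ, where Btbd9 was among those lost. This list was chosen with earlier results of these data known, so its share is no separate evidence. Alad, the haem synthesis enzyme aminolaevulinate dehydratase, and its neighbour Hdhd3, a hydrolase family gene, are on chromosome 4. Alad was 11.4 to 13.5 FPKM in BXH-19/TyJ and BXHA1 and 15.5 to 17.9 FPKM in C57BL/6J, against 33.4 to 46.3 FPKM in the other BXH strains and 34.5 to 39.7 FPKM in C3H/HeJ. Hdhd3 had the same strains low, at 2.63 to 3.23 FPKM against 7.73 to 10.7 FPKM. Copa, the alpha subunit of the coatomer coat, on distal chromosome 1, was 44.7 to 48.3 FPKM in BXH-6/TyJ and BXH-9/TyJ and 44.8 to 49.3 FPKM in C3H/HeJ, against 67.3 to 76.5 FPKM in the other BXH strains and 68.0 to 68.7 FPKM in C57BL/6J. Kcnj10, a glial potassium channel gene less than 1 Mb away, was higher in the same 2 strains, at 113 to 134 FPKM against 79.0 to 106 FPKM, while the parents overlapped at 102 to 115 and 104 to 116 FPKM.

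Hbegf, a growth factor that binds the epidermal growth factor receptor, was at the C3H/HeJ level in BXHA1 alone. It was 20.4 and 18.6 FPKM there and 19.1 to 25.5 FPKM in C3H/HeJ, and 4.15 to 6.50 FPKM in the other 14 BXH mice, a difference of 1.75 ± 0.083 (SE) on the log2 scale (limma, adjusted p = 4.7e-08). Pla2g4e, a cytosolic phospholipase A2 family gene on chromosome 2, was on the C3H/HeJ side in BXHB2 alone, with 12.3, 13.2 and 12.2 FPKM against 2.86 to 4.50 FPKM in the other BXH mice and 10.7, 10.2 and 11.5 FPKM in C3H/HeJ.

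The genes of the Y chromosome, which passes from father to son without recombining over most of its length, divided the strains once more. The Y genes Kdm5d, Eif2s3y, Uty and Ddx3y encode a histone demethylase, a translation initiation factor subunit, a related demethylase and an RNA helicase, and 4 of 4 were called, where 18.3% of all loci were. Ddx3y was 36.6 and 38 FPKM in BXHA1, 34.9 to 40.4 FPKM in BXHB2 and 31.2 to 36.0 FPKM in C3H/HeJ. It was 15.5 to 21.6 FPKM in the other 4 BXH strains and 16.3 to 17.9 FPKM in C57BL/6J. Kdm5d was 12.6 to 14.4 FPKM in BXHA1 and BXHB2 and 4.33 to 7.71 FPKM in the other BXH mice, and Eif2s3y was 43.4 to 61.3 FPKM and 19.7 to 25.9 FPKM. Uty was 8.30 to 13.0 FPKM in BXHA1 and BXHB2 and 3.84 to 6.53 FPKM in the other 4 strains. For each of these genes BXHA1 and BXHB2 lay with C3H/HeJ and the other strains with C57BL/6J, without overlap. Without BXHA1 and BXHB2, 0 of the 4 genes were called by limma.

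Each strain was then compared with the mean of the other 5, which share mice between the comparisons. The loci called numbered 253 (1.8%) in BXH-19/TyJ, 600 (4.26%) in BXH-4/TyJ, 465 (3.3%) in BXH-6/TyJ, 1055 (7.5%) in BXH-9/TyJ, 1437 (10.2%) in BXHA1 and 1392 (9.89%) in BXHB2. Higher and lower loci numbered 89 (0.632%) and 164 (1.17%) in BXH-19/TyJ, 320 (2.27%) and 280 (1.99%) in BXH-4/TyJ, and 227 (1.61%) and 238 (1.69%) in BXH-6/TyJ. They numbered 519 (3.69%) and 536 (3.81%) in BXH-9/TyJ, 1016 (7.22%) and 421 (2.99%) in BXHA1, and 498 (3.54%) and 894 (6.35%) in BXHB2. Higher loci thus outnumbered lower ones in BXHA1 and lower loci outnumbered higher ones in BXHB2. With the log2 of mapped reads as a covariate, BXHA1 had 130 loci, of which 128 were among the 1437, and BXHB2 had 1067, of which 985 were among the 1392. The counts of BXH-4/TyJ, BXH-6/TyJ and BXH-9/TyJ became 188, 156 and 373, and that of BXH-19/TyJ became 189. Because both BXHA1 mice had the fewest mapped reads, strain and read depth cannot be told apart in BXHA1.

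**Figure D3:**
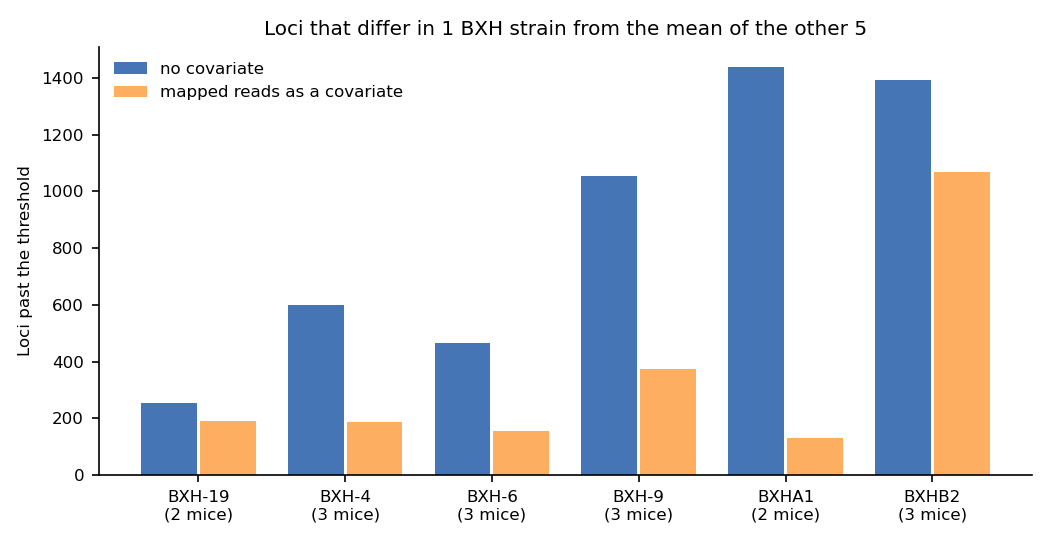
Number of loci that differ between 1 BXH strain and the mean of the other 5 (limma, adjusted p under 0.05; y axis), without and with mapped reads per mouse as a covariate. BXHA1 goes from 1437 to 130 loci and BXHB2 from 1392 to 1067. Both BXHA1 mice had the fewest mapped reads, so strain and read depth cannot be told apart in that strain.

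A stricter description asked which loci lay at least 1 on the log2 scale beyond all other 7 strain means, both parents included, and were called in that strain. This rule was set after the values were seen, and its counts are given without a further test. It found 9 loci in BXH-19/TyJ, all lower, which are 0.0639% of the loci tested, and 0 in BXH-6/TyJ. BXH-4/TyJ had 1 higher (0.00711%) and 2 lower (0.0142%), BXH-9/TyJ had 2 higher (0.0142%), BXHA1 had 7 higher (0.0497%) and 10 lower (0.0711%), and BXHB2 had 25 lower (0.178%). The counts depend on the limit: with a gap of 0.5 they were 20 in BXH-19/TyJ, 9 in BXH-4/TyJ, 9 in BXH-6/TyJ, 20 in BXH-9/TyJ, 100 in BXHA1 and 126 in BXHB2.

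All 9 BXH-19/TyJ loci lie side by side at the distal end of chromosome 2, at chr2:176708328-178034022 (mm10), a span of 1.33 Mb that holds no other locus of the expression table with a position. In map order they are Gm14305, Gm14295, Gm14410, Gm14420, Gm14403, Gm14322, Gm14325, Gm14326 and Etohi1, gene models of a rodent cluster of KRAB zinc finger genes, a family of DNA-binding repressors that is known for frequent gain and loss of copies. Short reads can be split between such copies, which was not measured here. Of the 9 loci, 7 had a promoter in the RefSeq table (GRCm38.p6, 250 bases before to 50 after the start). Over their 21 pairs, aligned globally, 93.9 to 99.1% of 215 to 296 aligned bases were identical. The longest run common to all 7 was 54 bases, and it was found, on either strand, in 30 of 32851 promoters (0.0913%), all on chromosome 2. The promoters of 3 members are printed to show how alike the copies are, from the first locus of the block to the most distal one with a promoter, each 5′ to 3′ on its own strand with the shared run in capitals. Gm14305 is at chr2:176708103-176708402 on the plus strand, Gm14322 at chr2:177759038-177759337 on the plus strand and Gm14326 at chr2:177957239-177957538 on the minus strand.
Gm14305: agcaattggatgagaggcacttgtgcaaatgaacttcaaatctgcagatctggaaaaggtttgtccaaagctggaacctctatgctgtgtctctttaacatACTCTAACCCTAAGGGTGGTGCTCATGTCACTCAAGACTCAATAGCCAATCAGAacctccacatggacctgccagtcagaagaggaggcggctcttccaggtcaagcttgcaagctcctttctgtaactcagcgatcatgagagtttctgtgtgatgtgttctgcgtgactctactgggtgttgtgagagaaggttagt
Gm14322: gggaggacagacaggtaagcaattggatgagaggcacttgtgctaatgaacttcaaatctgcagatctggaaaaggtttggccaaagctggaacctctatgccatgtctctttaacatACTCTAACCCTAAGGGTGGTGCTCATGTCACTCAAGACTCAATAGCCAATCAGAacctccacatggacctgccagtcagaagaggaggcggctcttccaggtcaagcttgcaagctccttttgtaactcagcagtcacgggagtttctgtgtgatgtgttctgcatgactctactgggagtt
Gm14326: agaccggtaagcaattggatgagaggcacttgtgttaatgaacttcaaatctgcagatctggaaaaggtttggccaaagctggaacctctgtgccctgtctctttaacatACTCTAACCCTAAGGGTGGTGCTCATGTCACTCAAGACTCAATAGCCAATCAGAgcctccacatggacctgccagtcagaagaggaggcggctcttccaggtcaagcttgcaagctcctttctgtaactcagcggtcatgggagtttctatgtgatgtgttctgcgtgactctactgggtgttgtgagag

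Gm14305 was listed at 0 in both BXH-19/TyJ mice and was 3.03 to 7.14 FPKM in the other 14 BXH mice, 3.33 to 4.84 FPKM in C57BL/6J and 5.20 to 6.22 FPKM in C3H/HeJ. Gm14325 was 0 and 0.039 FPKM in BXH-19/TyJ and 5.86 to 13.5 FPKM in the other BXH mice, a difference of -3.29 ± 0.18 (SE) on the log2(FPKM + 1) scale (limma, adjusted p = 1.8e-07). Gm14322, which was 0 and 0.11 FPKM in BXH-19/TyJ, was 1.49 to 5.35 FPKM in the others. Gm14326 was 0.48 and 0.25 FPKM against 4.75 to 8.95 FPKM. Etohi1, at the distal edge, kept the most, with 0.812 and 0.815 FPKM against 2.01 to 6.23 FPKM. In these loci both BXH-19/TyJ mice lay below every other BXH mouse and every mouse of both parents.

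The remaining members, Gm14295, Gm14410, Gm14420 and Gm14403, were 0.023 to 0.21 FPKM in BXH-19/TyJ and 1.04 to 17.6 FPKM in the other BXH mice. Gm14295 varied most among the other strains, from 2.28 to 17.6 FPKM, and its adjusted p in BXH-19/TyJ was 0.0022, rising to 0.066 without BXH-19/TyJ replicate 2. The parents did not differ past the threshold at any of these 9 loci, with differences from -0.31 to 0.43 on the log2 scale (adjusted p at least 0.12). Of the 73 positioned loci within 5 Mb outside the block, 2 were called in BXH-19/TyJ. One, with no gene name and 2.47 Mb from the start of the block, was as low in BXHA1 and C57BL/6J as in BXH-19/TyJ, with log2 means of 0.14, 0.25 and 0.22. The other, Ppdpf, 4.48 Mb away, differed by -0.32 (adjusted p = 0.042). It was as low in BXH-6/TyJ, BXHB2 and BXH-9/TyJ as in BXH-19/TyJ, with log2 means of 3.51, 3.52, 3.56 and 3.51. BXHA1 had 3.93 and BXH-4/TyJ 4.63, next to 4.64 in C57BL/6J and 3.64 in C3H/HeJ.

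Among the 91 other strains, 1 strain, NZW/LacJ, also had all 9 strain means under 1 on the log2(FPKM + 1) scale. Its mean was 0.15 for Gm14305, 0.19 for Gm14325 and 0.73 for Etohi1, where BXH-19/TyJ had 0, 0.027 and 0.86. No other strain had more than 3 of the 9 loci that low. At Gm14420 and at Gm14403 19 of the 91 strains had a mean under 0.5, and at Gm14326 and Etohi1 none had.

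**Figure D4:**
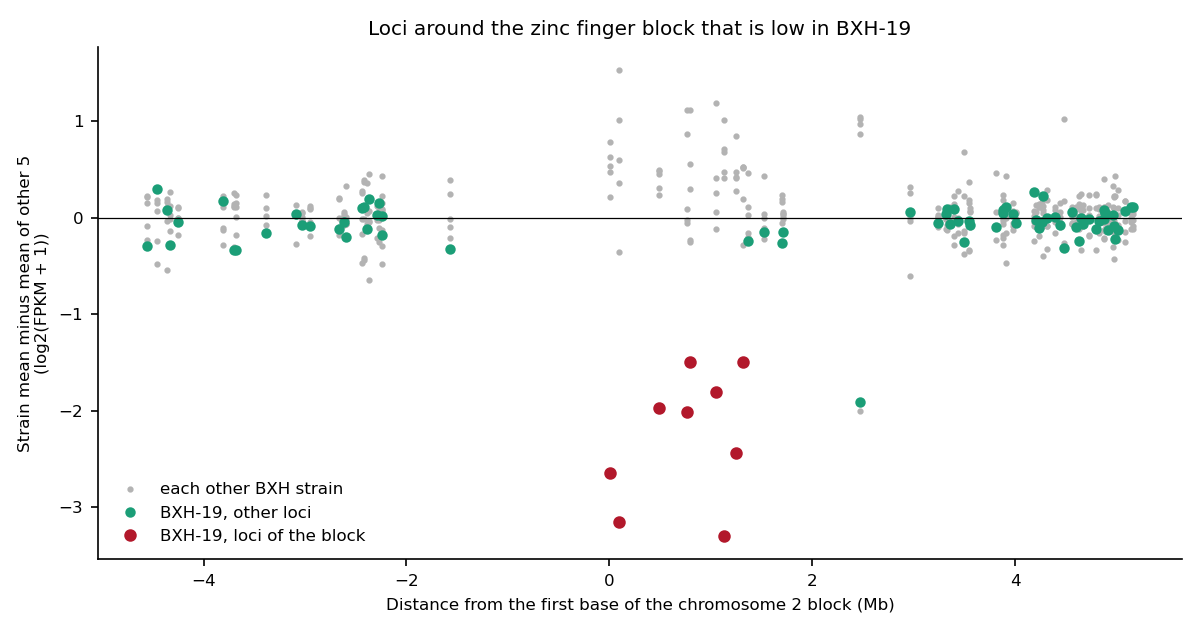
Difference between each BXH strain mean and the mean of the other 5 (y axis, log2(FPKM + 1) scale) for loci by their distance from the first base of the chromosome 2 block (x axis, Mb). The 9 loci of the block in BXH-19/TyJ lie between -3.29 and -1.50, the neighbouring loci of that strain lie near 0 apart from 1 locus 2.47 Mb along, and grey points are the other strains.

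In BXHB2 the 25 loci beyond all other strain means were all lower, 0.178% of the loci tested, and they include Prkcd, Tcf7l2, Tnnt1 and Ramp3, which are 4 of the 5 thalamus markers listed for the dissection. Gbx2, a homeobox gene of the developing thalamus, was 0.96, 1.14 and 1.99 FPKM in BXHB2 and 6.58 to 12.6 FPKM in the other BXH mice, a difference of -2.11 ± 0.12 (SE) on the log2 scale (limma, adjusted p = 3.6e-07). Lhx9, a LIM homeobox gene, was 1.71 to 2.38 FPKM against 6.72 to 13.6 FPKM. Zic2, a zinc finger gene of the early brain, was 7.38, 7.03 and 6.87 FPKM against 16.2 to 23.9 FPKM. Gpr151, an orphan receptor of the habenula, was 0.022, 0 and 0.13 FPKM in BXHB2, and it was also low in BXH-6/TyJ replicate 1 (0.054 FPKM) and in 1 C3H/HeJ mouse (0.057 FPKM). Slc17a7, a vesicular glutamate transporter, was 5.41, 0.63 and 5.54 FPKM against 12 to 58.8 FPKM.

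The 4 thalamus markers among these 25 loci are also the 4 of 5 called among the strains, beside 18.3% of all loci, and are no separate evidence. Prkcd, a protein kinase C gene, was 17.9, 6.60 and 24.4 FPKM in BXHB2 and 51.7 to 137 FPKM in the other BXH mice (difference -2.26 ± 0.30, SE, adjusted p = 0.00049), and Tcf7l2, a Wnt pathway transcription factor, was 20.9, 8.15 and 26.0 FPKM against 39.5 to 69.8 FPKM. The 5 markers summed to 58.2, 21.5 and 80.0 FPKM in BXHB2, 135 to 291 FPKM in the other BXH mice and 141 to 303 FPKM in the parents. Without BXHB2, 0 of the 5 thalamus markers were called by limma, where the count with BXHB2 was 4. How far the amount of thalamus in the tissue set the BXHB2 loci was not tested.

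Peptide genes of the lateral hypothalamus were highest in BXHB2. Pmch, the precursor of melanin-concentrating hormone, which promotes feeding, was 915, 781 and 844 FPKM in BXHB2, 735, 555 and 756 FPKM in BXH-9/TyJ and 327 to 466 FPKM in the other 4 strains (F test, limma, adjusted p = 3.5e-05). C57BL/6J had 397 to 430 FPKM and C3H/HeJ 409 to 551 FPKM, so that BXHB2 was above both parents. Hcrt, the precursor of the orexins, which promote wakefulness, was 289, 274 and 250 FPKM in BXHB2 and 88.3 to 191 FPKM in the other BXH mice, next to 155 to 217 FPKM in C57BL/6J and 76.4 to 108 FPKM in C3H/HeJ. Pdyn, the dynorphin precursor, was 19.4 to 23.5 FPKM in BXHB2 and 20.1 to 23.4 FPKM in BXH-9/TyJ, and Cartpt, the precursor of a peptide that reduces feeding, was 87.1 to 108 FPKM in BXHB2. These 4 were the members called of 17 measured hypothalamic peptides, a share near the 18.3% of all loci. Without BXHB2, Hcrt and Cartpt were no longer called. For the 17 peptides the median range of strain means was 0.76 against 0.35 over all loci. Their median strain share of variance was 34.6%, against 31.2% over all loci, so the wider range did not come with a much larger strain share. The same BXHB2 mice had the lowest thalamus markers, and the part of that in the peptide levels was not tested.

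Pomc, the precursor of melanocortins, and Npy, a peptide that promotes feeding, were not called (adjusted p = 0.20 and 0.071). Pomc was 1267 FPKM in BXH-4/TyJ replicate 2, where growth hormone (Gh) was 1527 FPKM, and 13.6 to 56.3 FPKM in the other 15 BXH mice. Of 10 measured genes of leptin and insulin signalling, 3 were called, beside 18.3% of all loci, and Irs2 alone was called with mapped reads as a covariate or without BXHB2, and Foxo1 alone without BXH-9/TyJ. Irs2, an insulin receptor substrate, was lowest in BXH-9/TyJ at 9.17 to 10.3 FPKM against 11.1 to 16.6 FPKM. Foxo1, a transcription factor that insulin restrains, was lowest in BXH-6/TyJ at 3.74 to 4.09 FPKM against 4.01 to 5.34 FPKM, with a small overlap. Mc3r, a melanocortin receptor, had its lowest mean in BXHA1, at 1.2 and 1.6 FPKM, where 1 BXH-9/TyJ mouse had 1.41 FPKM.

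In BXH-9/TyJ both loci beyond the other strains, Ttr and Sostdc1, are known for the choroid plexus, which makes cerebrospinal fluid. Ttr, which encodes the thyroid hormone carrier transthyretin, was 883, 808 and 191 FPKM there and 2.01 to 78.6 FPKM in the other BXH mice. Sostdc1, a secreted inhibitor of BMP and Wnt signalling, was 15.5, 12 and 3.79 FPKM against 0.88 to 2.73 FPKM. The choroid plexus list had 3 of 5 members called, beside 18.3% of all loci, and 1 of 5, Ttr, without BXH-9/TyJ. Its summed level was 912, 833 and 203 FPKM in BXH-9/TyJ and 9.81 to 91.2 FPKM in the other BXH mice. The third C57BL/6J mouse and the third C3H/HeJ mouse, at 1422 and 834 FPKM, were as high, so that the level varied within each parent.

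**Figure D5:**
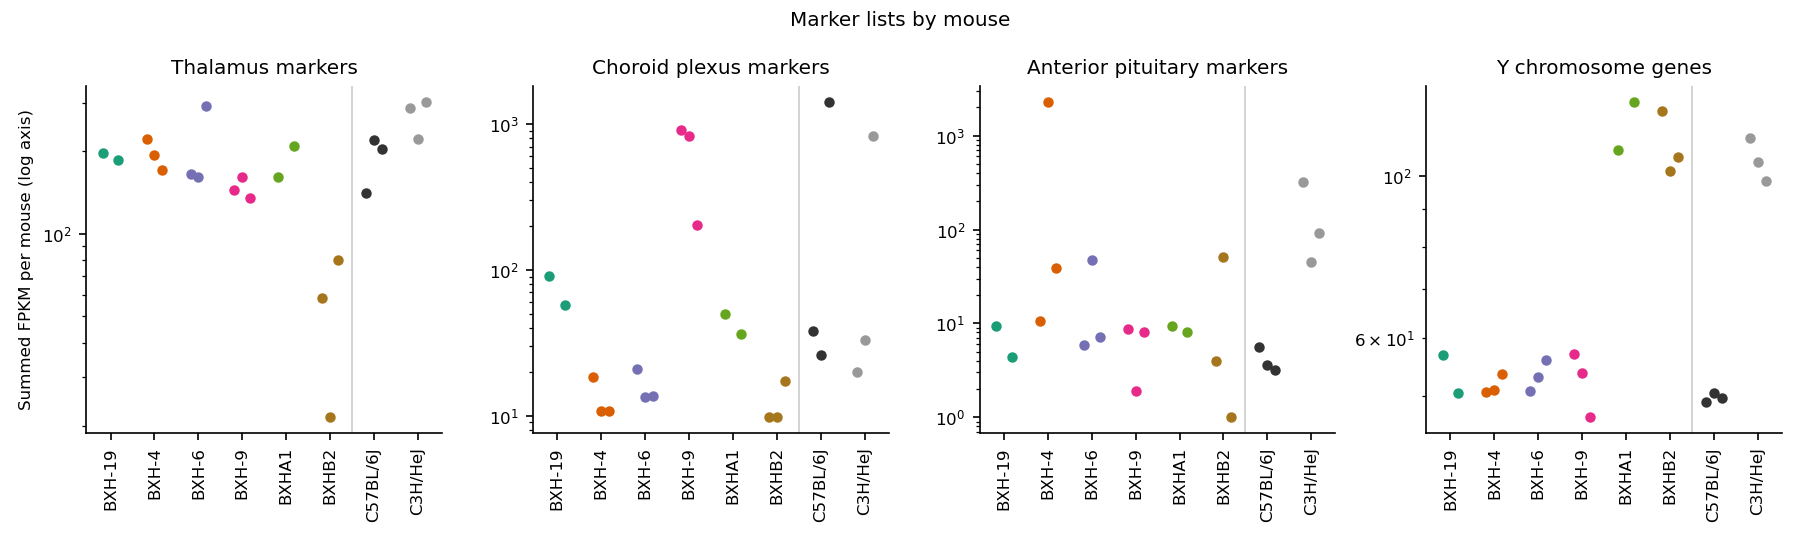
Summed FPKM of marker lists per mouse on a log axis, for thalamus (5 genes), choroid plexus (5 genes), anterior pituitary (6 genes) and the Y chromosome (4 genes), with the parents right of the line. The 3 BXHB2 mice are lowest for thalamus (21.5 to 80.0), the 3 BXH-9/TyJ mice highest of the BXH mice for choroid plexus, BXH-4/TyJ replicate 2 highest for pituitary, and BXHA1, BXHB2 and C3H/HeJ share the higher level of the Y genes.

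Among the glial and vascular lists, 4 of 11 microglia genes, 1 of 6 astrocyte genes, 3 of 6 oligodendrocyte genes and 4 of 5 endothelial genes were called, beside 18.3% of all loci. Gfap, the intermediate filament of astrocytes, was 115 and 181 FPKM in BXH-19/TyJ and 52.3 to 60.1 FPKM in BXH-6/TyJ, with the other strains at 67.9 to 122 FPKM. Mag and Cnp, which encode myelin proteins, were called among the strains and had their lowest means in BXH-19/TyJ, but their contrasts for that strain had adjusted p values of 0.078 and 0.075, and neither was called among the strains without BXH-9/TyJ. Cd68, a lysosomal protein of phagocytes, was 8.01 and 8.60 FPKM in BXH-19/TyJ and 2.14 and 2.17 FPKM in BXHA1. Without BXHA1, Cd68 was no longer called. Cx3cr1, the fractalkine receptor, was called among the strains (F test, limma, adjusted p = 0.012). It was also called without BXHA1, without BXHB2, without BXH-9/TyJ and with mapped reads as a covariate. Flt1, a receptor for vascular endothelial growth factor, was lowest in BXH-9/TyJ, at 4.62 to 6.74 FPKM against 7.05 to 10.5 FPKM, and 0 of the 5 endothelial genes were called by limma without BXH-9/TyJ.

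Of 11 measured clock genes 2 were called, a share near the 18.3% of all loci. Without BXHB2, or without BXH-9/TyJ, Nr1d1 was no longer called, and without BXHA1 Arntl was no longer called. Arntl, which encodes the clock activator BMAL1, was 11.52 and 11.49 FPKM in BXHA1 and 6.51 to 8.16 FPKM in the other BXH mice, a difference of 0.57 ± 0.066 (SE) on the log2 scale with an adjusted p of 0.00020, which became 0.068 with mapped reads as a covariate. Nr1d1, a repressor of the clock, was 31.4 to 34.4 FPKM in BXH-9/TyJ, BXHA1 and BXHB2 and 36.7 to 46.5 FPKM in the other strains. Of 8 immediate early genes, which respond to activity and handling within minutes, 0 were called by limma, and Fos ranged from 3.87 to 28.5 FPKM with the strains overlapping (adjusted p = 0.37).

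BXHA1 had 17 loci beyond all other strain means, 7 higher and 10 lower, in the strain with the fewest mapped reads, and 9 with mapped reads as a covariate. Ran, a GTPase of nuclear transport, was 143 and 167 FPKM against 41.4 to 72.7 FPKM in the other BXH mice (adjusted p = 1.7e-05, and 0.0095 with mapped reads as a covariate). Rpl28, a ribosomal protein gene, was 178 and 176 FPKM against 58.3 to 94.6 FPKM (adjusted p = 0.00021 and 0.0058). Mir22hg, a microRNA host gene, met the rule through 1 mouse, at 197 FPKM next to 6.63 FPKM in the other. In BXH-4/TyJ Mxra7, a matrix remodelling associated gene, was 4.01, 3.45 and 3.63 FPKM against 8.21 to 11.1 FPKM in the other BXH mice and 7.77 to 11.5 FPKM in the parents (difference -1.21 ± 0.072, SE, limma, adjusted p = 2.4e-07). Lancl3, an X-linked gene of the lanthionine synthetase-like family, was 0.67, 0.61 and 0.47 FPKM in BXH-4/TyJ and 1.99 to 4.18 FPKM in the other BXH mice, next to 1.89 to 3.67 FPKM in the parents. Gm9954, a gene model, was 4.75, 2.03 and 6.29 FPKM in BXH-4/TyJ and 0.28 to 1.56 FPKM in the other BXH mice. Mxra7 and Lancl3 were thus below every mouse of either parent in the 3 BXH-4/TyJ mice.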

How the data were processed

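An unstranded mRNA library of the hypothalamus was sequenced per mouse. Per the labels and the study's methods, the authors aligned reads with STAR 2.3.1 to mm10, assembled transcripts with Cufflinks 2.2.0 and deposited FPKM values scaled over all libraries by Cuffnorm 2.2.1. Every deposited locus exceeded 1 FPKM in 50 or more mice and 0 in 100 or more. Read counts were not used, so no counting interval is given, and mapped reads from the study's sample list served only as a covariate. Of 14079 loci, 11497 carried 1 gene name and 1555 had no position.

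Strains came from the strain label. 1 mouse with conflicting labels was left out. log2(FPKM + 1) was fitted with limma 3.58.1 (R 4.3.3), with strain as group. The fit was tested on simulated data. The members and lists were chosen with earlier results of these data known. Named genes were the 20 loci with the largest range of strain means among those called, with 1 gene name and mean FPKM of at least 1, the 3 with the smallest p in each strain, the 10 with the largest parental difference past both tests, and members of the lists. Some named loci of the stricter description were chosen after their values were seen. The p-values compare differences between strain means with the spread between mice of a strain, which limma moderates across loci. Alternatives were other pseudocounts, a filter on low values, quantile normalization, limma trend, a fit of all strains, the covariate and leaving out strains or mice. Promoters were aligned with Biopython 1.88. Some loci past the rule are not reported here.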

Additional observations from a re-analysis of the deposited data

How the results depend on the processing

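The 2575 loci called among the strains became 1509 with mapped reads as a covariate, 813 without BXHA1 and BXHB2, 1563 without BXHB2 and 1618 without BXH-9/TyJ; the last 2 settings, and the one without BXHA1 alone (1736), were added after seeing the data. Leaving out 1 mouse gave 1900 to 2698. The median strain share of 31.16% became 19.89% without BXHA1 and BXHB2, 25.27% without BXHA1, 28.5% without BXHB2 and 28.09% without BXH-9/TyJ, and 29.85 to 35.1% without 1 mouse. With the covariate it was 44.1%, after a slope on mapped reads, fitted within strains, was removed from the values. Removing that slope lowers the spread within strains by construction, so the 44.1% is not comparable with the other shares. With the covariate BXH-4/TyJ had 188, BXH-6/TyJ 156, BXH-9/TyJ 373 and BXHA1 130 loci, and BXH-9/TyJ had 631 with all strains in 1 fit. Leaving out 1 mouse gave 100 to 273 loci in BXH-19/TyJ, 283 to 611 in BXH-4/TyJ, 237 to 468 in BXH-6/TyJ, 379 to 1233 in BXH-9/TyJ, 487 to 1513 in BXHA1 and 651 to 1469 in BXHB2; a strain left with 1 mouse was assumed to vary like the others. The parental comparison gave 1069 loci with all strains in 1 fit and 375 to 429 without 1 mouse. Agreement of loci within 2 Mb was 79.7% over 23 pairs of loci with 1 gene name, against 71.3% over 54 pairs. The cause of these changes was not tested, beyond the removed slope for the 44.1% and fewer mice in the fits that leave some out. Of the 27 loci named by size or p, 19 were called in all 27 settings; Slc6a3 was not called in 18 of them. Loci beyond all other strain means numbered 13 in BXH-19/TyJ, 3 in BXH-4/TyJ, 4 in BXH-6/TyJ, 11 in BXH-9/TyJ, 59 in BXHA1 and 66 in BXHB2 with a pseudocount of 0.1, and 10, 2, 0, 2, 9 and 25 with the covariate. All 9 loci of the chromosome 2 block stayed beyond the other strains with a gap of 0.5, a pseudocount of 0.1 or the covariate. No paired analysis was possible because the labels number mice individually and pair none across strains. With 2 or 3 mice per strain and FPKM only, small differences and low loci are the least certain.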
